A study of Emberiza melanocephala with 4 samples.

Results

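The library labelled LD hypothalamus and the library labelled SD liver were set against each other as brain against liver, 2 of the 4 libraries of a study of Emberiza melanocephala, the black-headed bunting, a songbird that migrates. LD and SD stand for long day and short day, the seasonal states of the study. The birds were wild-caught, total RNA was extracted from hypothalamus or liver, and each library was sequenced by pyrosequencing, which yields few but long reads. Each group has 1 library, and whether it holds RNA of 1 bird or several is not stated. The recorded seasonal state contradicts the title in both libraries of the pair (LD hypothalamus is recorded as short day, SD liver as long day), so the titles were followed. Both libraries outside the pair held genes that go against their tissue labels. The library labelled LD liver named 43 genes of the brain lists and 2 of the liver lists. That labelled SD hypothalamus named 2 of the brain lists and 3 of the liver lists, or 5.88% and 8.82% of its 34 names. The lists hold 298 and 198 genes, and counts as small as these do not by themselves tell its tissue. Neither enters a ratio of the pair. Tissue and season differ together in the pair and cannot be told apart. No replicate check and no test was possible, and every difference describes these libraries only.

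The pair was chosen because the genes in each file fit the tissue on its label, so a brain or liver character of the lists is what chose the pair and is not a finding. A gene is called named in a library where the authors' assembly lists a reference transcript of the collared flycatcher with that gene symbol. The levels are the authors' FPKM, that is, coverage per base relative to all aligned bases, summed over the transcripts of a symbol. In all, 174 symbols were named in the pair, of 278 over the 4 libraries: 126 in LD hypothalamus and 62 in SD liver. Of these, 14 were named in both, 112 only in LD hypothalamus and 48 only in SD liver. The 14 were 11.1% of the LD hypothalamus names and 22.6% of the SD liver names. A gene that is not named in a library is not at 0 there, and no ratio was formed with it.

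Neurons spend energy on ion gradients and on vesicle release, and their transcripts include membrane fusion proteins, voltage-gated channels, receptors for transmitters and hormones, and adhesion proteins that shape synapses. The hypothalamus reads day length and hormonal signals and sends out peptides that set feeding, migration and reproduction. Hepatocytes take up sugars and amino acids, run the methyl and purine cycles, oxidise alcohols and aldehydes, and secrete plasma proteins such as apolipoproteins. Genes of translation, glycolysis, the cytoskeleton and protein turnover work in both tissues.

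Depth was low in both libraries. The ratio of FPKM to coverage gives 13.3 aligned megabases for LD hypothalamus and 20.8 for SD liver. Named genes held 189 kilobases, or 1.42% of that sequence, in LD hypothalamus and 69.3 kilobases, or 0.333%, in SD liver. The 5 highest loci, which carry no gene symbol, held 84.5% and 84.6% of the listed FPKM. The median coverage of a reference transcript was 0.35 in LD hypothalamus and 0.33 in SD liver, so that most bases of most named genes were read less than once. Without read counts, no counting interval is given.

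Marker genes describe the libraries but are no independent check of the labels, since the pair was chosen by the fit of its genes. LD hypothalamus named 2 of 11 neuron markers (SNAP25 and GAP43), 1 of 6 astrocyte markers (SPARC), 1 of 6 myelin markers (GPM6B) and 2 of 5 endothelial markers (CLDN5 and S1PR1), and 0 of 12 hepatocyte markers. SD liver named 1 of 12 hepatocyte markers, ONECUT1, a homeobox factor of hepatocyte development, and 0 of the neuron, astrocyte, myelin and endothelial markers. A second hepatocyte marker was present in SD liver without its symbol. APOA1, the core apolipoprotein of HDL particles, appeared there as an assembled transcript of 892 bases at 655 FPKM, on 12148 aligned bases, over the interval named APOA1 in the files labelled SD hypothalamus (327 FPKM) and LD liver (20.9 FPKM). The library labelled SD hypothalamus named 2 of the 12 hepatocyte markers, APOA1 and ONECUT1 (10.9 FPKM there and 11.1 in SD liver), so that neither marks SD liver alone. ALB and the fibrinogen genes were not named in SD liver, nor were GFAP or MBP in LD hypothalamus. No erythrocyte, pituitary or muscle marker was named in either library.

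Of the 14 genes named in both libraries, 5 were on the housekeeping lists, 1 on the brain lists and 1 on the liver lists. Of the 14, 8 were at least 2-fold higher in LD hypothalamus (57.1% of the 14) and 1 was at least 2-fold higher in SD liver (7.14%), on the scale of log2(FPKM + 1), which understates the difference of low genes. The 8 were NRIP1, PFN2, KCNJ11, ZBED4, EIF4A2, OAZ1, UFM1 and FBXL14, and the 1 was KCTD21. Joining assembled transcripts as well gave 35 loci present on both sides. Of these, 28.6% were at least 2-fold higher in LD hypothalamus and 11.4% in SD liver. The first share includes DDX5 and CNBP and the second GAPDH, whose transcripts differ between the libraries. Of the 18 such loci without a symbol, 0% and 11.1% were.

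On FPKM, which is relative to all aligned bases, the 14 genes named in both libraries stood higher as a group in LD hypothalamus. Their median log2 ratio, LD hypothalamus over SD liver, was 1.09, while that of the 18 loci without a symbol was -0.47. Before such scaling, the median aligned bases of the 14 genes were 387.5 in LD hypothalamus and 400.5 in SD liver. Relative to the median of 1.09, 2 genes were at least 2-fold higher in LD hypothalamus (NRIP1 and PFN2) and 3 at least 2-fold higher in SD liver (KCTD21, SLC25A6 and ZBTB43). Relative to it, FBXL14, ACTB, COX1 and LRRC8D also lay on the liver side, though higher in LD hypothalamus as deposited. All 14 rest on the same reference transcript in both files, so that transcript length enters these ratios only through the 1 added to FPKM. NRIP1, for example, was at 3.11 on FPKM and at 3.65 on aligned bases per megabase.

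**Figure D1:**
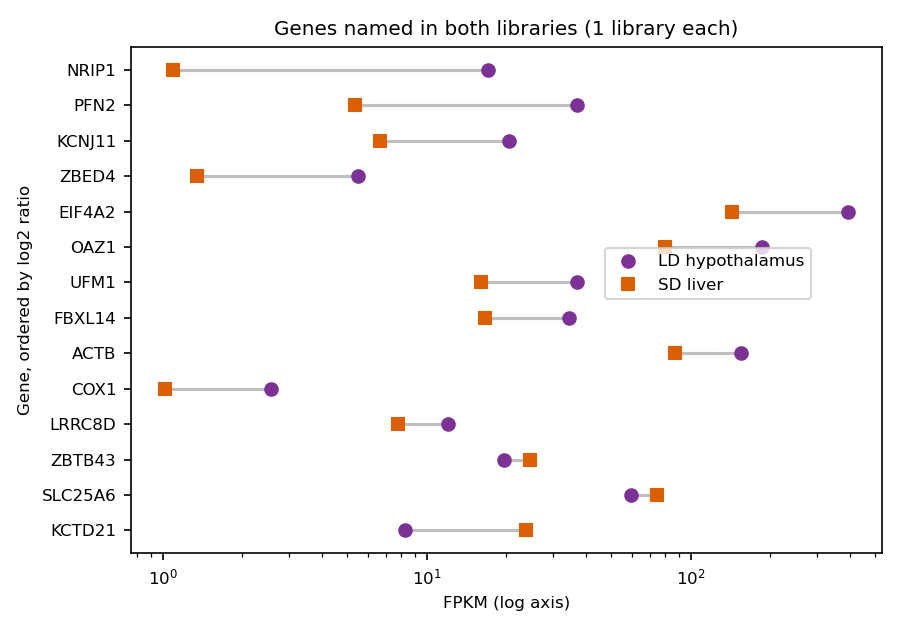
FPKM (log axis) of the 14 genes named in both libraries, 1 point per library, with purple circles for LD hypothalamus and orange squares for SD liver, ordered by log2 ratio. NRIP1, at the top, had 17.0 and 1.09 FPKM, and KCTD21, at the bottom, had 8.28 and 23.8 FPKM. Without subtraction of the median ratio, 11 of the 14 circles lie to the right of their square.

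Translation was represented by EIF4A2, an RNA helicase that unwinds messenger RNA for the ribosome. It had 394 FPKM in LD hypothalamus, on 14054 aligned bases, and 144 FPKM in SD liver, on 8028 (log2 ratio 1.45; scaffold JH603178.1, 11100757 to 11109425). It was the highest shared gene of both libraries. OAZ1, the antizyme that restrains polyamine synthesis, had 187 and 79.9 FPKM, on 4145 and 2774 aligned bases (log2 ratio 1.22; JH603288.1, 540225 to 544680). Both stood near the median shift of the shared genes, at 0.36 and 0.12 once it was subtracted.

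In the cytoskeleton, ACTB, the cytoplasmic actin, stood at 156 FPKM in LD hypothalamus against 87.0 in SD liver, on 7564 and 6628 aligned bases (log2 ratio 0.83; JH603209.1, 1743400 to 1750200). PFN2, the profilin best known from neurons, which feeds actin monomers to growing filaments, had 37.0 and 5.32 FPKM (log2 ratio 2.59). On TPM the ratio of ACTB was 1.15, past the 2-fold limit. The PFN2 value of SD liver rests on 67 aligned bases, and ACTB may share reads with other actins.

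Energy metabolism gave 2 shared genes, of opposite order. SLC25A6, an ADP/ATP carrier of the inner mitochondrial membrane, stood at 59.5 FPKM in LD hypothalamus against 74.6 in SD liver, on 2982 and 5858 aligned bases (log2 ratio -0.32; JH603176.1, 8845531 to 8850443). It was the highest of the 3 shared genes with more FPKM in liver, and relative to the median shift it was at -1.41. COX1, a mitochondrially encoded subunit of cytochrome c oxidase, had 2.56 and 1.02 FPKM. With 53 and 33 aligned bases behind them, these values are not secure.

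Protein turnover gave 3 shared genes. UFM1, a ubiquitin-like modifier, stood at 37.2 FPKM in LD hypothalamus against 16.0 in SD liver. FBXL14, a substrate receptor of SCF ubiquitin ligases, had 34.6 and 16.6 FPKM. KCTD21, an adaptor of cullin-3 ligases, had 8.28 and 23.8 FPKM. KCTD21 was the 1 shared gene at least 2-fold higher in SD liver as deposited (log2 ratio -1.42), though on 86 aligned bases in LD hypothalamus. UFM1 rests on 125 and 84 aligned bases, with an even coverage of 0.50 on exons 2 to 5 in LD hypothalamus and of 0.33 on all 5 exons in SD liver.

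The shared transcription regulators ranged from the largest ratio of the 14 to the smallest in size. NRIP1, a co-repressor of nuclear receptors, stood at 17.0 FPKM in LD hypothalamus against 1.09 in SD liver, the largest log2 ratio of the 14 at 3.11. ZBED4, a zinc-finger protein, had 5.46 and 1.34 FPKM (log2 ratio 1.47). The SD liver values of both rest on fewer than 150 aligned bases (79 for NRIP1 and 98 for ZBED4). ZBTB43, another zinc-finger protein, had 19.7 and 24.5 FPKM and lay slightly on the liver side (log2 ratio -0.30). The shared channels were KCNJ11, the pore of ATP-sensitive potassium channels (20.6 and 6.63 FPKM, log2 ratio 1.50), and LRRC8D, which forms part of the anion channels that open when cells swell (12.1 and 7.76 FPKM, log2 ratio 0.58).

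Exon by exon, among the 6 multi-exon shared genes, EIF4A2, OAZ1 and SLC25A6 had exons of opposite order. UFM1, ACTB and PFN2 were higher in LD hypothalamus on every exon, and UFM1 evenly so, by 2.22-fold to 2.35-fold. In EIF4A2, exon coverage on the FPKM scale was nearly equal at the 5' end, at 603 in LD hypothalamus and 656 in SD liver on exon 2, and at 44.4 and 50.8 on exon 1. On exon 5 it was 896 and 538. From exon 7 on, the libraries parted. Exon 8 had 998 and 42.5, and exon 10 had 1406 and 48.1, which is 29.2-fold. The higher level of EIF4A2 in LD hypothalamus thus lay mainly in exons 7 to 10, where SD liver was covered at 0.88 to 1.71 reads per base against 7.73 to 18.7. EIF4A2 has a close paralog, and reads shared between them cannot be told apart here.

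OAZ1 showed a similar slope from 5' to 3', with the order crossing over. Exon 1 had 152 in LD hypothalamus and 187 in SD liver, and exon 2 had 93.4 and 204 (2.18-fold higher in SD liver). Exon 5 had 212 and 33.1, or 6.41-fold higher in LD hypothalamus. The gene-level ratio of OAZ1 therefore averages exons with opposite order. ACTB did not cross, since all 6 exons were higher in LD hypothalamus, by 1.46-fold to 3.57-fold. Of the 3 exons of SLC25A6, exon 1 was higher in LD hypothalamus (84.2 against 57.0), and exons 2 and 3 were higher in SD liver (168 against 238, and 41.1 against 73.7).

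**Figure D2:**
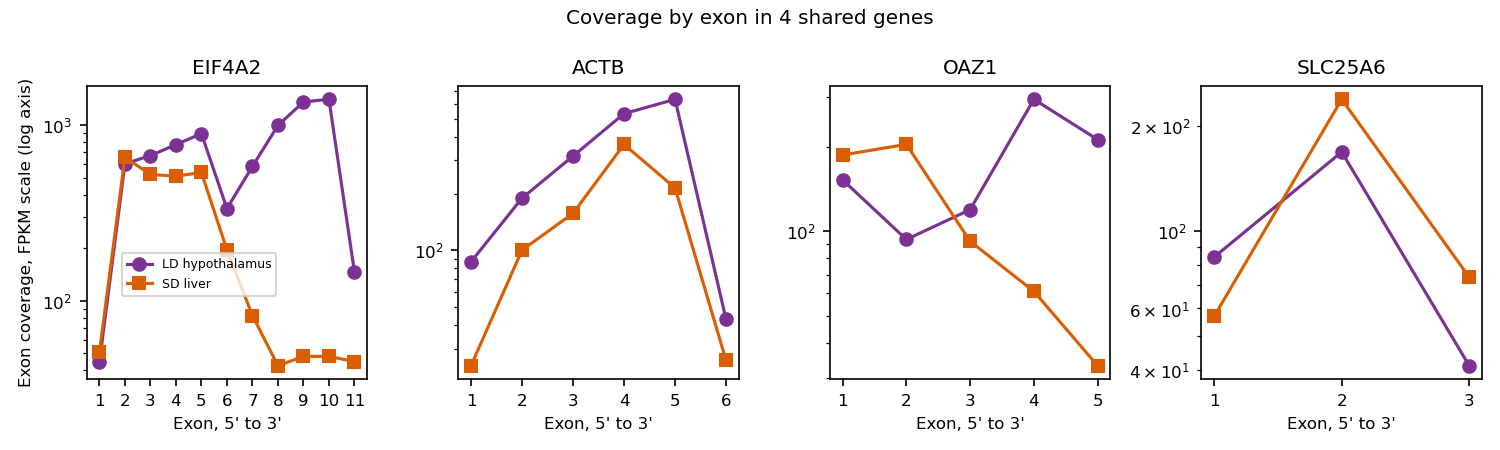
Exon coverage on the FPKM scale (log axis, scaled separately in each panel) against exon number from 5' to 3' for EIF4A2, ACTB, OAZ1 and SLC25A6, 1 point per library (purple, LD hypothalamus; orange, SD liver). The EIF4A2 lines run together over exons 1 and 2 and part after exon 6, the OAZ1 lines cross after exon 2, and the ACTB lines do not cross.

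The 112 genes named only in LD hypothalamus ranged from 0.62 to 375 FPKM, with a median of 28.3. Of these, 8 exceeded 100 FPKM. At the top stood CKB, a creatine kinase abundant in brain that buffers ATP (375 FPKM, 10341 aligned bases; JH603184.1, 6631498 to 6642757). SNAP25, a fusion protein of synaptic vesicles, followed at 290 FPKM on 14353 aligned bases, the most of any named gene of that library (JH603274.1, 2338212 to 2404309). Its 8 exons were covered from 0.75 to 12.0 reads per base. CKB and SNAP25 were not named in SD liver, and no assembled transcript there overlapped them.

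Genes of synapse, axon and peptide secretion numbered 7 of the 112 in LD hypothalamus and 0 of the 48 in SD liver. OLFM1, a secreted glycoprotein of neurons, had 201 FPKM. CPE, which trims neuropeptide precursors, had 87.3 FPKM, and the growth-cone protein GAP43 had 38.8. STMN3, a tubulin-binding stathmin of neurons (40.6 FPKM), BASP1, a membrane protein of axon tips (11.4 FPKM), and ARC, an activity-regulated protein of synapses (5.58 FPKM), completed the group. BASP1 and ARC rest on 110 and 90 aligned bases. Of the 44 genes of the neuron list, 5 were named in LD hypothalamus, and STMN3 and ARC stand outside that list. No member of the list of hypothalamic peptides and the photoperiod axis (30 genes) or of the list of transmitter enzymes, carriers and receptors (22 genes) was named in either library.

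Leucine-rich-repeat and adhesion proteins, which organise synapses and guide axons, gave 11 genes in LD hypothalamus. PCDH9, a protocadherin, had 73.4 FPKM, LRRTM1, which induces presynaptic contacts, 63.1 FPKM, and LINGO1, a partner of the Nogo receptor, 44.5 FPKM. SLITRK1, SLITRK4 and SLITRK2, related synaptic adhesion proteins, had 38.7, 24.7 and 22.0 FPKM. FLRT2, ELFN2, LRRC4C, OMG and LRRN1 lay between 3.08 and 31.6 FPKM. LRRN1, the lowest of the 11, rests on 88 aligned bases. SD liver named 1 gene of the kind, AMIGO2, at 1.48 FPKM on 57 aligned bases.

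Excitability was represented by potassium channels. KCNA2 and KCNA1, subunits of voltage-gated channels of axons, had 78.5 and 68.9 FPKM, close to each other. KCNS2 and KCNF1, modifier subunits that do not form channels alone, had 20.3 and 6.28 FPKM, KCNF1 on 122 aligned bases. KCNJ6, a channel opened by G proteins, had 9.68 FPKM. None of these 5 was named in SD liver, where KCNJ11 was the 1 potassium channel pore named.

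G-protein-coupled receptors gave 10 genes, and GNB1, a beta subunit of G proteins, had 150 FPKM on 4757 aligned bases. SSTR1 and SSTR3, receptors of somatostatin, had 43.8 and 2.94 FPKM, SSTR3 on 47 aligned bases. HTR1F and HTR1B, serotonin receptors, had 16.8 and 13.5 FPKM. S1PR1, the sphingosine-1-phosphate receptor of vessels, had 31.3 FPKM, ADRA2C, an adrenergic receptor, 18.3 FPKM, and GPER1, a membrane estrogen receptor, 13.5 FPKM. The receptors GPR22, GPR63 and GPR85 had 30.5, 18.6 and 9.25 FPKM, GPR85 on 137 aligned bases. SD liver named no receptor of this class, and its 1 related gene was RGS9BP, an anchor of a G-protein regulator (14.5 FPKM).

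Signalling adaptors were prominent in LD hypothalamus. Of the 7 genes of the list of 14-3-3 adaptors, which bind phosphorylated proteins, 5 were named there and not in SD liver. The library labelled LD liver named 4 of them too, and that labelled SD hypothalamus named YWHAQ. In LD hypothalamus, YWHAH stood at 226 FPKM, YWHAZ at 98.1, YWHAB at 79.2, YWHAQ at 77.1 and YWHAE at 77.0. Apart from YWHAH, they lay within a narrow band, and near-identical members may share reads. CALM3, a calmodulin gene, had 160 FPKM on 8052 aligned bases, with the same limit. PTP4A1, a prenylated phosphatase, had 112 FPKM, and PPP1CB, a catalytic subunit of protein phosphatase 1, had 55.3.

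Glia, vessels and matrix gave 5 genes in LD hypothalamus. GPM6B, a proteolipid of neural cell membranes, had 91.2 FPKM, GJA1, the gap junction protein of astrocytes, 55.4 FPKM, and SPARC, a matrix glycoprotein, 41.5 FPKM. CLDN5, the tight-junction protein of brain vessels, had 13.9 FPKM on 120 aligned bases. None was named in SD liver. In bulk tissue, fewer cells of a type and less RNA per cell cannot be told apart.

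Among transcription regulators named in LD hypothalamus and not in SD liver, ZBTB18, a repressor needed in cortical development, had 82.3 FPKM (91.3 in LD liver). BHLHE40, a repressor of clock genes, had 35.0 FPKM. NEUROD1, a factor of neuronal differentiation, had 27.6 FPKM (16.5 in LD liver). ATF4, a factor of the stress response, had 14.9 FPKM, TSHZ3 11.4 FPKM and SOX11, a factor of young neurons, 9.51 FPKM. The cytoskeletal genes named in LD hypothalamus and not in SD liver were TUBA1C, an alpha-tubulin (105 FPKM), DSTN, which cuts actin filaments (44.2 FPKM), DYNLL2, a dynein light chain (43.9 FPKM), CNN3 (19.6 FPKM) and CFL2 (18.2 FPKM). Membrane traffic was represented by RAB11A, a GTPase of recycling endosomes (64.4 FPKM), and RAB1A, a GTPase between endoplasmic reticulum and Golgi (42.3 FPKM). UBE2D3, a ubiquitin-conjugating enzyme, had 54.4 FPKM. These last classes were represented on the liver side too, by other genes.

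**Figure D3:**
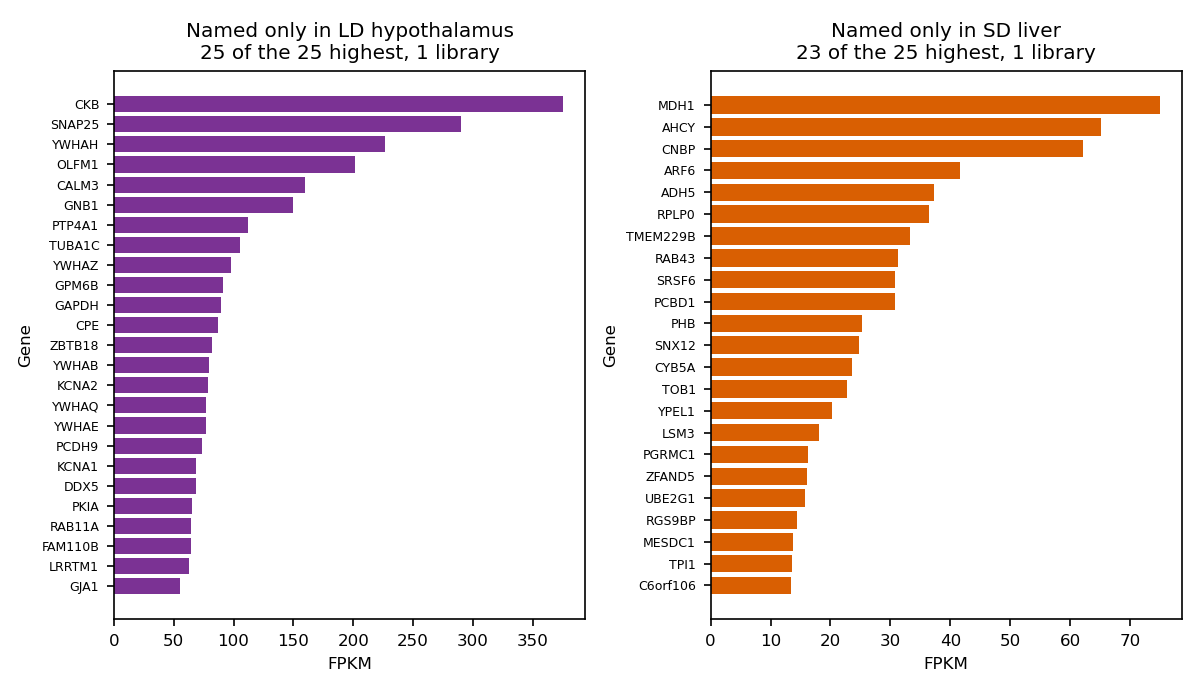
FPKM of the 25 genes with the highest value among those named only in LD hypothalamus (left, purple) and of 23 of the 25 highest named only in SD liver (right, orange); bars start at 0, each is 1 library, and the horizontal scales differ. CKB reaches 375 FPKM on the left, and MDH1 reaches 74.9 FPKM on the right. GAPDH, DDX5 and CNBP also have a transcript over their interval in the library where they are not named, for DDX5 that of another reference gene.

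The 48 genes named only in SD liver had a median of 13.5 FPKM, against 28.3 for those named only in LD hypothalamus. Their median aligned bases were 391 and 558. The same coverage gives a lower FPKM in SD liver, with 48.1 FPKM per unit of coverage against 75.4 in LD hypothalamus. Of the 48, 0 exceeded 100 FPKM. Their lowest value, 1.48 FPKM, was above the 0.62 FPKM of the genes named only in LD hypothalamus. The genes named in both libraries also stood higher in LD hypothalamus on FPKM, with a median log2 ratio of 1.09. A lower FPKM in SD liver is thus not particular to the 48, and whether that shift accounts for their lower median was not tested. Enzymes of energy metabolism were among the 48. MDH1, the cytosolic malate dehydrogenase, had 74.9 FPKM on 7705 aligned bases, the most of these 48 (JH603223.1, 3838051 to 3849263). TPI1, triosephosphate isomerase, had 13.6 FPKM on 764.

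Enzymes of the methyl cycle and of redox reactions formed the next group, with 5 of the 48 genes against 2 of the 112 in LD hypothalamus. AHCY, which removes the S-adenosylhomocysteine left by methylation, had 65.1 FPKM on 4482 aligned bases (JH603374.1, 34639 to 59235). ADH5, the formaldehyde-oxidising alcohol dehydrogenase, had 37.3 FPKM on 2039 aligned bases (JH603188.1, 12871678 to 12882948). PCBD1, which regenerates the cofactor of phenylalanine hydroxylase, had 30.7 FPKM. CYB5A, the cytochrome b5 that hands electrons to desaturases and P450 enzymes, had 23.6 FPKM, and PGRMC1, a heme-binding partner of P450 enzymes, had 16.3. The 2 of this class in LD hypothalamus were AMD1, an enzyme of polyamine synthesis (40.8 FPKM), and ZADH2 (25.5 FPKM).

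Regulators of hepatocyte genes were few and low. ONECUT1 had 11.1 FPKM on 827 aligned bases (JH603201.1, 4920281 to 4939950), and CEBPB, a factor of liver and of inflammation, had 10.8 FPKM on 184 (JH603297.1, 807520 to 808341). NFIL3, a repressor in the clock, had 13.1 FPKM. Of the 22 genes of the list of hepatocyte transcription factors, these 2, ONECUT1 and CEBPB, were named in SD liver and 0 in LD hypothalamus. BMP4, a secreted growth factor, had 6.15 FPKM.

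RNA and translation genes named only in SD liver were CNBP, a nucleic-acid-binding protein (62.2 FPKM), RPLP0, a protein of the large ribosomal subunit (36.4 FPKM), SRSF6, a splicing factor (30.7 FPKM), TOB1, which promotes removal of poly(A) tails (22.7 FPKM), LSM3 (18.0 FPKM), SRP14, a protein of the signal recognition particle (13.0 FPKM), and PNRC2 (6.14 FPKM). PNRC2 rests on 54 aligned bases. In LD hypothalamus the ribosomal protein named was another, RPS3 (27.8 FPKM). Of the 61 ribosomal protein genes of the list, these were the 2 named in the pair. Membrane traffic gave 6 genes in SD liver, among them ARF6 (41.6 FPKM), RAB43 (31.3 FPKM) and SNX12 (24.8 FPKM). PHB, a scaffold of the inner mitochondrial membrane, had 25.3 FPKM.

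**Figure D4:**
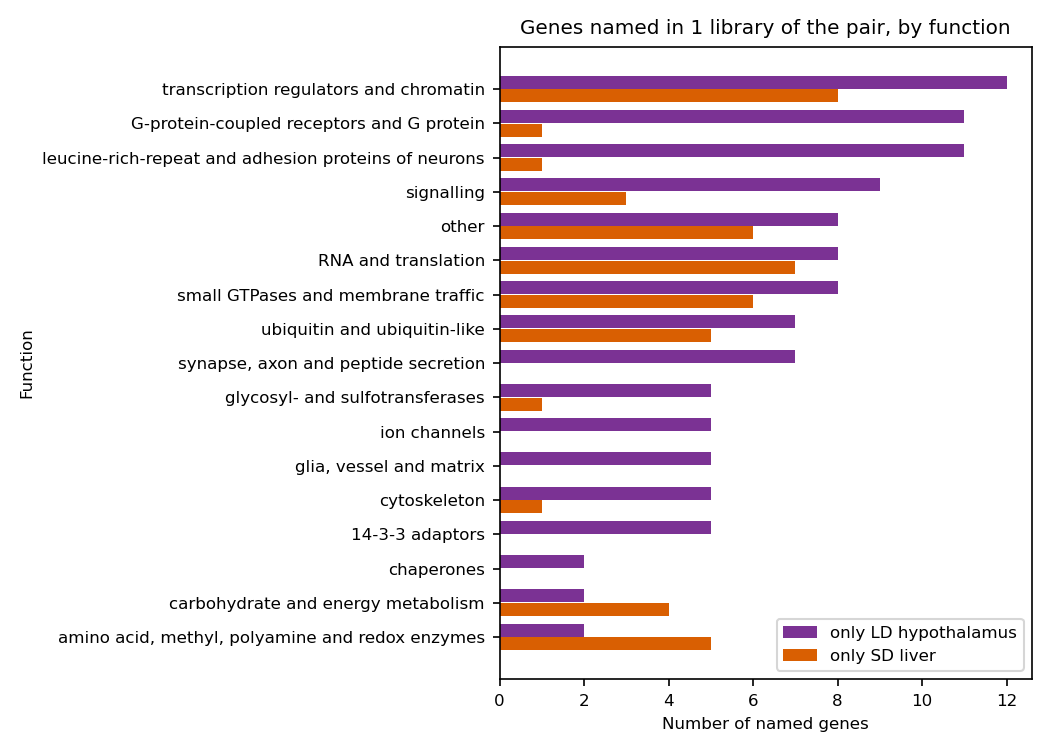
Number of genes named only in LD hypothalamus (purple) and only in SD liver (orange) in each of 17 classes of function, which were assigned after the genes were known. Synapse and axon genes, ion channels, 14-3-3 adaptors, glia genes and chaperones have bars on the LD hypothalamus side only, and the 2 classes of metabolic enzymes have the longer bar on the SD liver side. Over all classes the bars sum to 112 and 48 genes, so a small class, such as the 2 chaperones, says little.

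Over the gene lists, the brain lists (298 genes) had 34 members named only in LD hypothalamus, 1 only in SD liver and 1 in both. The liver lists (198 genes) had 1 member only in LD hypothalamus, 5 only in SD liver and 1 in both. The housekeeping lists (278 genes) had 18, 9 and 5. All 174 named genes of the pair split into 112, 48 and 14. Housekeeping-list genes made up 18.3% of the names of LD hypothalamus and 22.6% of those of SD liver. For the brain lists these shares were 27.8% and 3.23%, and for the liver lists 1.59% and 9.68%. The 1 liver-list gene of LD hypothalamus was AMD1, and the 1 shared was OAZ1, both of polyamine metabolism. The lists of secreted proteins, of purine enzymes and of lipid, glucose and bile acid metabolism had 0 members with a symbol in either library. By interval, APOA1 and PAICS, an enzyme of purine synthesis (an assembled transcript of 500 bases at 143 FPKM), were present in SD liver.

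Being named in 1 library depended in part on how the transcript was assembled. Of the 112 genes, 2 had a transcript over the same interval in SD liver, and of the 48, 1 had such a transcript in LD hypothalamus. GAPDH, the glycolytic enzyme, was named in LD hypothalamus at 89.8 FPKM on a reference transcript of 6021 bases. In SD liver an assembled transcript of 1170 bases over its interval had 451 FPKM, and GAPDH was thus not missing from liver. On FPKM its log2 ratio was -2.32, and on aligned bases per megabase, which are not divided by length, it was 0.04. CNBP, named in SD liver at 62.2 FPKM, had an assembled transcript of 438 bases at 220 FPKM in LD hypothalamus (log2 ratio 1.81, and -0.79 on aligned bases). DDX5, an RNA helicase named in LD hypothalamus, shared its interval in SD liver with a feature of 124 bases at 28.5 FPKM on 73 aligned bases. That feature is another reference gene than DDX5, so no ratio is given for DDX5.

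Conversely, assembled transcripts without a symbol lay over 7 more genes that other files name. In LD hypothalamus these were EIF4G2, a translation factor (270 FPKM), ATP6V1C1, a proton pump subunit (224 FPKM), UBE2K, a ubiquitin-conjugating enzyme (220 FPKM), and PVALB, which binds calcium in fast-firing neurons and in muscle (205 FPKM). In SD liver they were APOA1, PAICS and EIF5, a translation factor (123 FPKM). Each of the 7 was present in 1 library of the pair only. With these included, 17 named loci had a transcript in both libraries, 114 only in LD hypothalamus and 50 only in SD liver. The 17 are the 14 shared genes, GAPDH and CNBP, and the DDX5 locus, where the SD liver feature is another gene.

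Genes of a single exon made up 46.4% of those named only in LD hypothalamus, 43.8% of those only in SD liver and 57.1% of those in both. Every multi-exon gene that was named had coverage above 0 on all of its exons, 66 of 66 in LD hypothalamus and 33 of 33 in SD liver. A gene with an uncovered exon was thus not among the named genes of these files. The last exon held a median of 46.2% of the aligned bases of a gene in LD hypothalamus, where it was 75.1% of the length, and 20.6% in SD liver, where it was 64.7% of the length. These medians are over largely different genes. Of the 6 multi-exon genes named in both libraries, the last exon held a larger share in LD hypothalamus in 3 (OAZ1, EIF4A2 and UFM1) and in SD liver in 3 (PFN2, SLC25A6 and ACTB).

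The other 2 libraries of the study were not used to choose the single-library genes, and they name some of them. Of the 112 genes named only in LD hypothalamus, 65 (58.0%) were also named in the library labelled LD liver and 5 (4.46%) in that labelled SD hypothalamus. For the 14 genes named in both libraries of the pair, these shares were 64.3% and 35.7%, so 58.0% is not particular to the 112. Of the 65, 44 were within 2-fold of their LD hypothalamus level, with a median log2 ratio of 0.16. The 65 include SNAP25 (290 FPKM in LD hypothalamus and 462 in LD liver), YWHAH (226 and 215), LRRTM1 (63.1 and 112) and HTR1B (13.5 and 105). The 5 of the 112 also found in SD hypothalamus were CALM3, YWHAQ, DSTN, DYNLL2 and ZFP36L1, of which 4 were at least 2-fold lower there. The libraries labelled LD liver and SD hypothalamus name 183 and 34 genes in all, which sets how many could be found.

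Of the 48 genes named only in SD liver, 14 (29.2%) were also named in LD liver and 8 (16.7%) in SD hypothalamus. For the 14 genes named in both libraries of the pair, these shares were 64.3% and 35.7%, both higher. Read against list length, 8 of 34 names of SD hypothalamus and 14 of 183 of LD liver were among the 48. Those in SD hypothalamus included MDH1 (74.9 FPKM in SD liver and 40.1 in SD hypothalamus), ARF6 (41.6 and 74.1), NFIL3 (13.1 and 82.7) and TPI1 (13.6 and 24.1). The others were ONECUT1 (11.1 and 10.9), MESDC1, ZHX1 and RNF139. Of these 8, 6 were named in LD liver too, all but ONECUT1 and MESDC1. In LD liver, MDH1 had 30.9 FPKM, ARF6 48.8, NFIL3 3.93 and TPI1 22.6, so the 8 do not set SD hypothalamus apart from LD liver. Of the 48, 32 were named in no other library, among them the enzymes AHCY, ADH5, CYB5A and PCBD1, so this is not particular to those enzymes. Of the 112, 47 were named in no other library, among them CPE, YWHAB, RAB11A and SPARC, although assembled transcripts there were not counted. Over the SPARC locus, LD liver did have a transcript without that symbol.

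**Figure D5:**
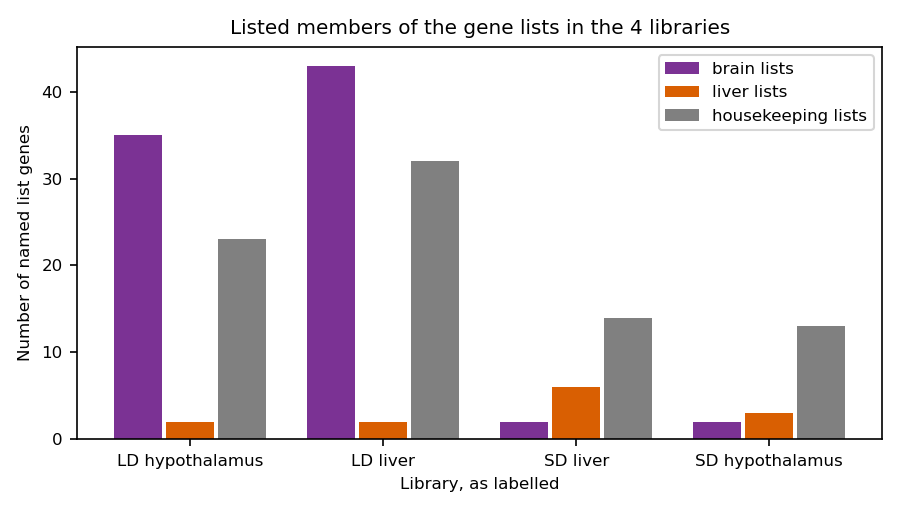
Number of list genes named in each library, by its label, for the brain lists (298 genes, purple), the liver lists (198 genes, orange) and the housekeeping lists (278 genes, grey). LD hypothalamus names 35 brain-list genes and LD liver 43, while SD liver and SD hypothalamus name 2 each. The liver lists have 6 in SD liver and 3 in SD hypothalamus. In all, LD hypothalamus names 126 genes, LD liver 183, SD liver 62 and SD hypothalamus 34, so the bars are not shares.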

How the data were processed

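The deposited files hold 1 transcript assembly per library, with coverage, FPKM and TPM for each transcript inside a text field. Per the file headers, the authors made them in StringTie 1.3.3b, taking a trimmed alignment and, as guide, Ensembl 89 gene models of the collared flycatcher (build FicAlb 1.4); the aligner is not given in the sources used here. Coordinates are those of the files on that build. Reads of a bunting can be lost where the species differ, and strand use is not stated, so antisense overlap cannot be resolved.

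FPKM and aligned bases (coverage times exon length) were summed per gene symbol with Python 3.11.15 and pandas 2.3.3. Ratios were log2(FPKM + 1), called at 2-fold, without a test. Aligned megabases follow from the ratio of FPKM to coverage. Exon levels are exon coverage times that ratio. Assembled transcripts were joined to genes over the 4 files where exons on a strand overlapped (minimum 1 base) or the reference gene was the same, giving 750 loci. The parser and the join were tested on simulated data.

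The pair, the 28 gene lists, the marker lists and the naming rule were chosen with earlier results of these data known; the 17 classes of function were assigned after seeing the genes. The rule took all shared symbols, the 25 highest symbols of each library alone and every listed list member; other genes named were chosen after their values were seen, and part of the genes it takes are given by count or in a plot only, or are not reported here.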

Additional observations from a re-analysis of the deposited data

How the results depend on the processing

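No alternative turned the median log2 ratio of the shared genes below 0; where it was recomputed it lay between 0.76 (pseudocount 10) and 1.403 (TPM). The number of shared genes at least 2-fold higher in LD hypothalamus, 8 of 14 as reported, was 4 with a pseudocount of 10, 4 of the 8 genes with at least 150 aligned bases in both libraries, 2 after subtraction of the median ratio and 2 at a 3-fold limit. The number at least 2-fold higher in SD liver, 1 as reported, was 0, 0, 3 and 0 in that order, and 2 over the 17 named loci joined with assembled transcripts, an alternative chosen after seeing the data in which DDX5, CNBP and GAPDH enter with transcripts that differ between the libraries. Subtraction of the median put FBXL14 on the liver side at -0.074. It lowers every ratio by construction, and fewer genes are compared under the limit on aligned bases. A pseudocount of 0.1, TPM and aligned bases per megabase left both counts within 1.5 times. For these genes, aligned bases per megabase differ from FPKM only through the pseudocount. Taking the highest transcript or shared reference transcripts could not change any value, since each of the 14 has a single transcript, the same in both libraries. Of 120 single-gene ratios under alternatives, which include those fixed by construction, 1 changed direction from at least 2-fold. A further 26 moved clearly in size or past the 2-fold limit. Only NRIP1 and PFN2, at least 2-fold higher in LD hypothalamus, and LRRC8D, within 2-fold, kept their call in every alternative that compared them. For NRIP1 and PFN2 these were 8, since the limit on aligned bases leaves both out, and for LRRC8D they were 9. After subtraction of the median, LRRC8D lay on the liver side at -0.52. COX1, UFM1 and ZBED4 kept their call in 6 of 8, and FBXL14 and KCNJ11 in 7 of 9.

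Genes named in both libraries numbered 8 with at least 150 aligned bases. Matching by gene identifier gave 25 in both, a count that takes in reference genes without a symbol. All joined loci, with or without a symbol, gave 245 only in LD hypothalamus, 140 only in SD liver and 35 in both. Genes with more than 1 exon, a split chosen after seeing the data, gave 60, 27 and 6. No paired analysis was possible because each group has 1 library, and no library could be left out. Depth and the absence of read counts limit every value, the more so for genes under 150 aligned bases.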
